A study of Mus musculus with 12 samples.

Results

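The retina of the inbred C57BL/6J mouse was compared between 4 and 8 weeks of age, that is, between the weeks just after the eye has reached its mature layered form and young adulthood. The comparison takes the 6 C57BL/6J libraries out of the 12 of the study, 3 at each age, chosen by their labels alone. All are whole neural retinas of the wild-type control strain, with no transgene, injection or treatment given in the labels. The other 6 libraries come from JR5558 mice of the same ages, a line that carries Crb1 rd8 together with a Jak3 allele and in which vessels grow under the retina spontaneously. They entered the fit, and they served to test whether a change with age differed between the strains. The 3 retinas of a group came from 3 different mice, by the study's design text, so the spread between replicates is that between animals.

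A mouse retina has nearly all of its neurons by the time the eyes open, and most of them are rods. After that rods lengthen and renew their outer segments, the membrane stacks that hold the light-sensing proteins. Bipolar, amacrine and ganglion cells refine their synapses, Müller glia take up spent transmitter and supply amino acids, and the vessel layers of the inner retina become stable. RNA of a whole retina sums over all of these cells, so fewer cells of a type and less RNA per cell cannot be told apart.

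Library totals were 18029611 to 21734035 counts. Pearson correlations of log2 CPM (counts per 1000000 counts of the library) were 0.979 to 0.988 within an age and 0.973 to 0.986 between ages, so the ranges overlap. The first principal component held 37.4% of the variance of the 500 most variable genes. It set 8-week replicate 1 apart at 31.8 from the other 5 at -10.1 to -4.0. Every 8-week retina lay above every 4-week retina on it, with 8-week replicates 2 and 3 both at -4.0. The gap between the ages was small beside the distance of 8-week replicate 1 from the rest. The lowest value on the second component (20.2%) was that of 4-week replicate 3, at -18.5. All 6 libraries held Xist, the long RNA that silences one X chromosome in females, at 477 to 1221 CPM, and 0 counts of the Y-linked genes Ddx3y, Eif2s3y, Kdm5d and Uty. Lens genes, which should be absent from neural retina, summed to 12.2 to 176 CPM at 4 weeks and 9.24 to 57.4 CPM at 8 weeks, with 4-week replicate 3 the highest, and their median log2 fold change of -1.10 (0 of 14 past the threshold below by edgeR, 0 at an unadjusted p under 0.05 and 0 by DESeq2) was 0.75 without that replicate. Markers of the pigment epithelium, the pigmented layer behind the photoreceptors, summed to 164 to 310 CPM and 228 to 366 CPM. Genes of the sclera and choroid summed to 85.8 to 103 CPM at 4 weeks and 118 to 123 CPM at 8 weeks, so their ranges did not overlap. Red blood cell genes stood at 28.5 to 55.4 and 14.6 to 46.7 CPM. The corneal genes and the lymphocyte genes were near 0. By an exact permutation test (2-sided) on the mean log2 CPM of 9 such lists, the scleral and choroidal list had p = 0.1, the smallest that 3 against 3 allows, and the others p = 0.3 to 0.8 (adjusted over the 9 lists, 0.788 to 0.8).

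By edgeR's quasi-likelihood test with Benjamini-Hochberg adjustment over 18334 genes, 79 genes (0.431%) passed an adjusted p of 0.05, of which 37 (0.202%) were higher and 42 (0.229%) lower at 8 weeks. DESeq2 called 407 of the same 18334, 76 of the 79 among them, and edgeR with no filter on low counts called 445, all 79 among them. Among the 79, 43 moved by less than 1.5-fold, and 11 (0.0600% of the genes tested) moved at least 2-fold, 4 up and 7 down. In all 79 the 3 retinas of one age lay above the 3 of the other, which 3482 of the 18334 genes tested (19%) also did, and 14.4% had an unadjusted p under 0.05. Protein-coding genes made up 67 of the 79. The number of genes called rested on single libraries. It was 125 without 4-week replicate 1, 38 without 4-week replicate 2 and 87 without 4-week replicate 3, and 31, 16 and 27 without 8-week replicates 1, 2 and 3. The 16 genes called in each of these 6 fits were Gpx3, Hdc, Isyna1, Gzmm, Hmgb2, Odc1, Sgk1, Sag, H3f3b, H1f2, Slc38a3, Gm47647 and Gm28661, all higher at 8 weeks, and Serinc5, Sparc and A930030B08Rik, all lower. Gm47647 and Gm28661 are annotated as pseudogenes, and whether reads of other copies were counted there was not tested.

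**Figure D1:**
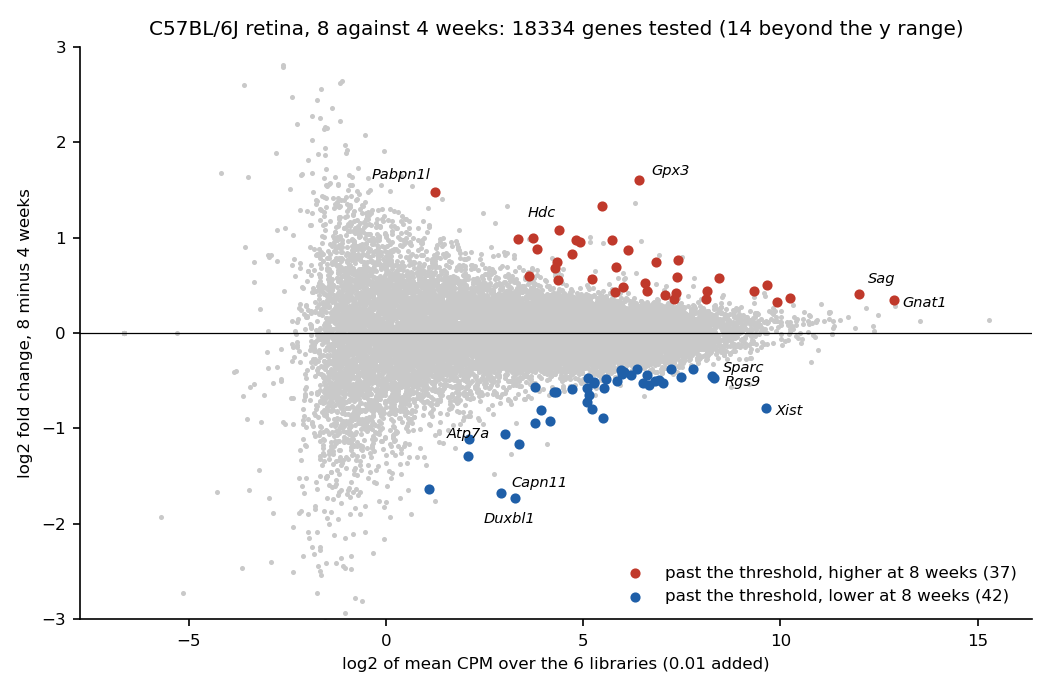
Log2 fold change from 4 to 8 weeks (y axis) against the log2 of the mean CPM over the 6 C57BL/6J libraries (x axis), 1 point per gene tested. The 37 genes past the threshold and higher at 8 weeks are red, the 42 lower ones blue and all others grey; 14 genes of low level lie beyond the y range.

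Rods carried the most abundant of the genes that rose. Sag encodes arrestin, which ends the light signal of rods. It stood at 3622, 3554 and 3337 CPM in the 3 retinas of 4 weeks and at 4647, 4790 and 4560 CPM in those of 8 weeks. Every 8-week retina thus lay above every 4-week retina, and the gap was wider than the spread within either age. The log2 fold change was 0.41 ± 0.06 (SE, n = 3 per age, adjusted p = 0.00370), a 1.33-fold rise. Gnat1 encodes the alpha subunit of rod transducin, the G protein that carries the light signal on. It stood at 6662, 6276 and 7041 CPM at 4 weeks and 8330, 8772 and 8242 CPM at 8 weeks (0.34 ± 0.06, adjusted p = 0.0188). Reep6, an endoplasmic reticulum protein of rods, rose from 1057 ± 91.9 (SD, n = 3) to 1361 ± 7.90 CPM (0.36 ± 0.08, adjusted p = 0.0388).

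Of the rod phototransduction list 1 gene fell, and the cells in which it fell were not tested. Rgs9 encodes the protein that speeds transducin back to its inactive state and so sets how fast the light response ends. Its levels were 408, 365 and 345 CPM at 4 weeks and 281, 241 and 286 CPM at 8 weeks (-0.47 ± 0.09, adjusted p = 0.0265). Arrestin and Rgs9 both end the rod response, and their RNAs moved in opposite directions. For this reason the promoters of Sag and Rgs9 are shown, from 250 bases before to 50 bases after the transcription start, as RefSeq gives them on GRCm38.p6. Capitals mark the letters TAATCC or its reverse complement, the core bound by the photoreceptor factors CRX and OTX2.
Sag, chr1:87803430-87803729, plus strand: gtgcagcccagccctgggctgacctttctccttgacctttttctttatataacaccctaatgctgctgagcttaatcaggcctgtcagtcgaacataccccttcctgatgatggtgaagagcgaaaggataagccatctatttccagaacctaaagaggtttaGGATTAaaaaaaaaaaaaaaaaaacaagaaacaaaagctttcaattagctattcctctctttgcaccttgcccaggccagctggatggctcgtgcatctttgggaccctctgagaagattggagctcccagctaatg
Rgs9, chr11:109298132-109298431, minus strand: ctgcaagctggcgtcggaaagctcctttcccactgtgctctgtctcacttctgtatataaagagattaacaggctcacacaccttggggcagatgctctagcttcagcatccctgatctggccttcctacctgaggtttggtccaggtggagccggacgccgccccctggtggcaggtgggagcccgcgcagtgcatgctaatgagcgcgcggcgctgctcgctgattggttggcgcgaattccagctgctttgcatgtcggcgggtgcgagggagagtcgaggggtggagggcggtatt
The Sag window held 1 such core, on the reverse strand and starting 87 bases before the start, and the Rgs9 window held none. Of 32851 promoter windows of 300 bases, 7.06% held the core on either strand. A further 3 motifs were searched on both strands, CACGTG (an E box, in 7.15% of windows), TGACTCA (an AP-1 site, in 5.20%) and TGCTGA (the core bound by MAF factors and NRL, in 19.5%). None of them shares letters with the TAATCC match. The first and second were in neither window, and the third was in both, once each. A match is a description of letters and not of binding. Windows were at hand for 56 of the 79 genes.

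Of 21 tested rod phototransduction genes 2 rose and 1 fell by edgeR (10 at an unadjusted p under 0.05). DESeq2 called 3 higher and 1 lower. The median log2 fold change of the 21 was 0.09 against 0.00 over all genes tested. Of 13 photoreceptor transcription factors none passed by edgeR (4 at an unadjusted p under 0.05, 3 by DESeq2), and Crx stood at 1080 to 1130 CPM and 1156 to 1217 CPM (0.12 ± 0.07). Of 14 cone genes none passed (3 at an unadjusted p under 0.05, 0 by DESeq2), and their median was -0.05. The cone opsins Opn1sw (-0.06 ± 0.07) and Opn1mw (-0.16 ± 0.10) had adjusted p of 0.740 and 0.463. The Sag call held in each fit that left out 1 library, but not in a fit of the 6 C57BL/6J libraries alone (adjusted p = 0.0566). In that fit Gnat1 (adjusted p = 0.148), Rgs9 (adjusted p = 0.0785) and Reep6 lost their calls too. The calls of Gnat1, Reep6 and Rgs9 ended without any 1 of the 8-week replicates and without 4-week replicate 2, that of Rgs9 also without 4-week replicate 1 and that of Reep6 without 4-week replicate 3. Their adjusted p then reached 0.162 for Gnat1, 0.173 for Reep6 and 0.220 for Rgs9.

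**Figure D2:**
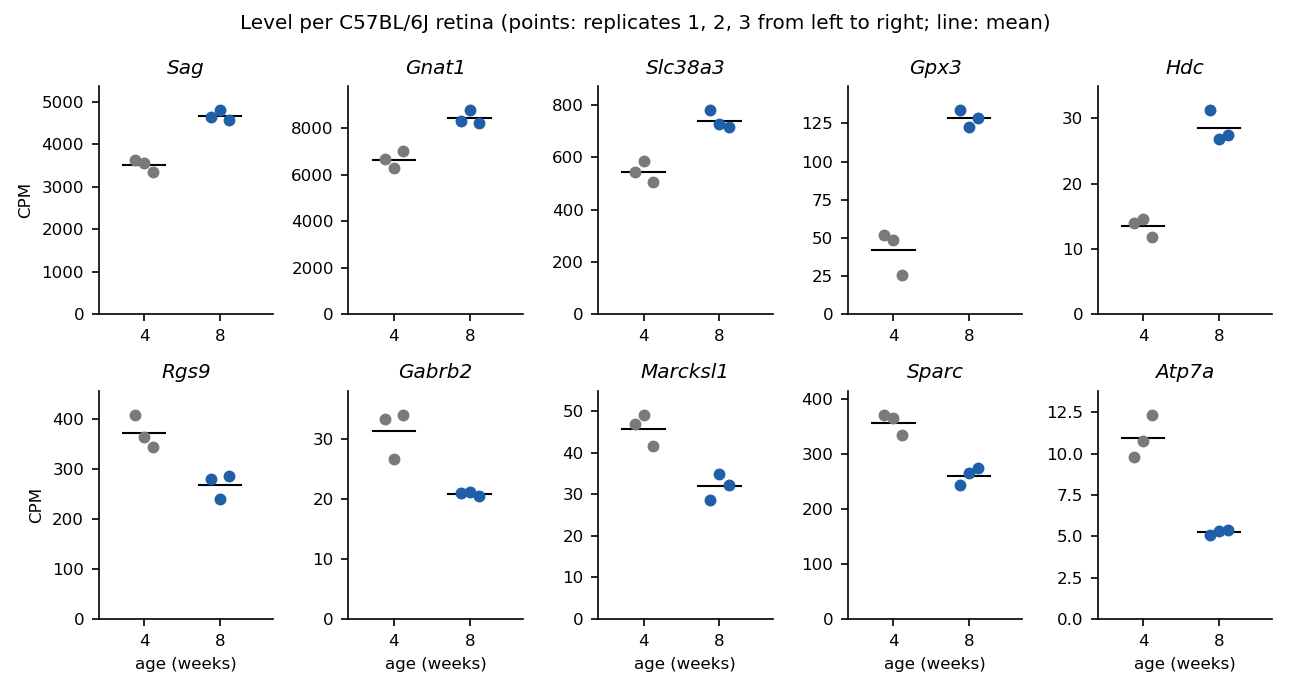
CPM (y axis, from 0) of 10 genes that passed the threshold, in the 3 retinas of 4 weeks (grey) and of 8 weeks (blue), with the mean as a line. The upper row holds genes that rose, from Sag to Hdc, and the lower row genes that fell; in each panel the 2 ages do not overlap, and in Gpx3 4-week replicate 3 lies below the other 2 of its age.

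In the inner retina 2 neuronal genes fell. The 22 bipolar markers had a median of 0.02. Vsx1, a homeobox factor of a subset of bipolar cells, stood at 34.5 to 39.8 CPM and 44.7 to 51.3 CPM (0.34 ± 0.09, adjusted p = 0.115). The ages did not overlap, but the change did not pass by edgeR. By DESeq2 it passed (adjusted p = 0.0318).

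Gabrb2, a subunit of the GABA-A receptor that answers inhibitory transmitter, stood at 33.4, 26.7 and 34.0 CPM at 4 weeks and 21.0, 21.2 and 20.5 CPM at 8 weeks (-0.59 ± 0.12, adjusted p = 0.0386). By edgeR it was the only one of 35 transmitter receptor subunits past the threshold, with 11 at an unadjusted p under 0.05. DESeq2 called 1 higher and 2 lower, and the median of the 35 was -0.13. Marcksl1, an actin-binding protein of growing neurites, fell from 46.8, 49.0 and 41.6 CPM to 28.6, 34.8 and 32.2 CPM (-0.52 ± 0.10, adjusted p = 0.0277). By edgeR it was the only 1 of 20 genes of immature neurons past the threshold (4 at an unadjusted p under 0.05). DESeq2 called 2 of the 20, both lower. Amacrine (21), ganglion cell (21) and horizontal cell (7) markers held no gene past the threshold by edgeR, with 6, 2 and 1 at an unadjusted p under 0.05, and DESeq2 called 0, 1 and 0. Of 24 voltage-gated channels none passed (5 at an unadjusted p under 0.05, 1 by DESeq2), and 19 had a negative log2 fold change, with a median of -0.14. Ntng2, a netrin-like guidance protein (0.42 ± 0.08), and Vgf, the precursor of secreted neuropeptides (0.70 ± 0.12), rose. The calls of Gabrb2, Marcksl1, Ntng2 and Vgf ended without any 1 of the 8-week replicates. They also ended without 4-week replicate 2 for Marcksl1 and Ntng2, without 4-week replicate 1 for Marcksl1 and Gabrb2 and without 4-week replicate 3 for Gabrb2, with adjusted p up to 0.169 for Gabrb2, 0.139 for Marcksl1, 0.151 for Ntng2 and 0.0937 for Vgf.

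Several enzymes and transporters rose. Gpx3 is a secreted glutathione peroxidase that removes peroxides outside the cell. It stood at 51.9, 48.8 and 25.8 CPM at 4 weeks and at 133, 123 and 128 CPM at 8 weeks, a 3.05-fold rise (1.61 ± 0.23, adjusted p = 0.00248). The lowest value was that of 4-week replicate 3, and the log2 fold change ran from 1.35 to 1.79 over all the other fits. The ciliary body gene Optc was also lowest in that retina, at 62.1, 47.1 and 23.4 CPM at 4 weeks and 59.4, 53.0 and 48.2 CPM at 8 weeks. Of 5 ciliary body genes 0 passed by edgeR (1 at an unadjusted p under 0.05, 0 by DESeq2), and their part in the Gpx3 value was not tested. Gstm1, a cytosolic glutathione transferase, rose from 16.6 ± 1.11 to 24.4 ± 2.54 CPM (0.56 ± 0.11, adjusted p = 0.0318). Its call ended without 4-week replicate 2 or 3 or any 1 of the 8-week replicates (adjusted p up to 0.162). By edgeR 2 of 18 oxidative stress genes passed, Gpx3 and Gstm1 (5 at an unadjusted p under 0.05, 3 by DESeq2). The list had a median of 0.14.

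Hdc, histidine decarboxylase, which makes histamine, stood at 14.0, 14.5 and 11.8 CPM at 4 weeks and at 31.2, 26.8 and 27.4 CPM at 8 weeks (1.09 ± 0.15, adjusted p = 0.00248). Isyna1, the first enzyme of inositol synthesis, rose from 18.9 ± 0.792 to 37.2 ± 3.02 CPM (0.98 ± 0.10, adjusted p = 0.000138). Odc1, which makes the first polyamine, rose from 132 ± 9.61 to 198 ± 13.3 CPM (0.58 ± 0.07, adjusted p = 0.00101). All 3 kept their calls in every other fit run. Slc38a3, the glutamine transporter SNAT3 of Müller glia, stood at 545, 585 and 506 CPM at 4 weeks and 780, 729 and 715 CPM at 8 weeks (0.44 ± 0.07, adjusted p = 0.00504). Its call ended in the fit of the 6 C57BL/6J libraries alone (adjusted p = 0.0566). None of the 20 homeostatic Müller genes listed passed by edgeR (6 at an unadjusted p under 0.05, 1 by DESeq2). All 20 had a positive log2 fold change, with a median of 0.11. Among them Rlbp1, which binds retinaldehyde in the visual cycle, was at 0.24 ± 0.08 (adjusted p = 0.163), and Glul, glutamine synthetase, at 0.06 ± 0.08.

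Sgk1, a kinase induced by glucocorticoids, stood at 249, 272 and 314 CPM at 4 weeks and 382, 435 and 435 CPM at 8 weeks (0.58 ± 0.08, adjusted p = 0.00315). It was the only 1 of 13 glucocorticoid-responsive genes past the threshold, and their median was -0.06. Srebf1, which drives fatty acid synthesis (0.36 ± 0.07), and Arrdc3, an arrestin-related adaptor (0.44 ± 0.09), rose as well. So did Chchd10 (0.48 ± 0.10) and Surf1 (0.43 ± 0.09), which serve the mitochondrial respiratory chain. In the other direction, Atp7a, the copper pump, stood at 9.80, 10.8 and 12.3 CPM at 4 weeks against 5.09, 5.31 and 5.40 CPM at 8 weeks, a 2.09-fold fall (-1.06 ± 0.19, adjusted p = 0.0155). Slc15a2, a peptide transporter, fell from 41.2, 65.9 and 69.7 CPM to 35.7, 32.0 and 27.7 CPM (-0.89 ± 0.19, adjusted p = 0.0490). Its ages nearly touched, between 4-week replicate 1 and 8-week replicate 1. The calls of the 6 genes after Sgk1 ended without any 1 of the 8-week replicates, and all but that of Atp7a also without 4-week replicate 2. That of Arrdc3 also ended without 4-week replicate 1 and those of Chchd10, Surf1 and Slc15a2 without 4-week replicate 3. The adjusted p reached 0.183 for Srebf1, 0.186 for Arrdc3, 0.220 for Chchd10, 0.169 for Surf1, 0.0941 for Atp7a and 0.220 for Slc15a2.

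The large gene groups of energy supply and protein synthesis held no gene past the threshold by edgeR. Of 74 nuclear genes of oxidative phosphorylation, 72 had a positive log2 fold change and 0 passed by edgeR (15 at an unadjusted p under 0.05, 2 by DESeq2), with a median of 0.15. Without 4-week replicate 3 the median was 0.05. The 13 genes of the mitochondrial genome had a median of 0.22 (0 past the threshold, 4 at an unadjusted p under 0.05, 0 by DESeq2), or 0.46 without that replicate, which had the highest mitochondrial share of counts, 4.45% against 2.90% and 2.99% at 4 weeks and 3.74% to 3.99% at 8 weeks. The 79 cytosolic ribosomal protein genes had a median of 0.19, or 0.11 without it, with 0 past the threshold (30 at an unadjusted p under 0.05, 4 by DESeq2). Pkm and Eno1, abundant enzymes of glycolysis, were at 0.16 ± 0.09 and 0.07 ± 0.06.

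Histones and chromatin proteins moved in part. Hmgb2, a DNA-bending protein abundant in dividing and young cells, stood at 37.8, 35.3 and 35.1 CPM at 4 weeks and 58.6, 73.2 and 80.8 CPM at 8 weeks (0.97 ± 0.12, adjusted p = 0.000884). The linker histone H1f2 rose from 85.4 ± 8.77 to 144 ± 14.8 CPM (0.75 ± 0.11, adjusted p = 0.00397). H2bc4 (0.52 ± 0.10, adjusted p = 0.0188) and H3f3b, the replacement histone H3.3 (0.50 ± 0.07, adjusted p = 0.00397), rose too. A list of all histone genes, drawn up after these values were seen, had 36 tested genes, of which those 3 rose and 0 fell, with a median of 0.34. Most replication histone RNAs have no poly-A tail and the libraries were made from poly-A RNA; its part in these values was not tested. Among 15 proliferation genes 0 passed by edgeR (3 at an unadjusted p under 0.05, 1 by DESeq2). The H2bc4 call ended without 4-week replicate 2 or 8-week replicate 2 or 3 (adjusted p up to 0.162).

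Of the 42 genes that fell, 9 that act on chromatin or transcription are described here. They were picked from the called genes after their values were seen, and no list of such genes was counted or tested. Lcor, a corepressor of nuclear receptors, stood at 22.1 to 25.0 CPM at 4 weeks and 11.3 to 13.3 CPM at 8 weeks (-0.92 ± 0.14, adjusted p = 0.00473). The DNA-binding proteins Zbtb37 (-0.80 ± 0.14), Klf12 (-0.72 ± 0.13) and Zbed6 (-0.65 ± 0.12), the Mediator subunit Med12l (-0.62 ± 0.13), the histone demethylases Kdm5a (-0.44 ± 0.08) and Kdm7a (-0.41 ± 0.09), the silencing factor Tasor (-0.51 ± 0.10) and the deacetylase Hdac9 (-0.44 ± 0.09) fell as well. Without 8-week replicate 2 all 9 calls were lost, and all but that of Lcor (adjusted p = 0.0655) also without other libraries, with an adjusted p of up to 0.282, for Med12l. Xist fell from 914, 1221 and 867 CPM to 727, 531 and 477 CPM (-0.79 ± 0.17, adjusted p = 0.0429), and its call ended without 4-week replicate 2 or 8-week replicate 2 or 3 (adjusted p up to 0.267) and by DESeq2. Kdm7a and Hdac9 also lost their calls with RLE scaling. Zbtb37, Zbed6, Tasor, Kdm5a, Med12l and the unnamed model A930030B08Rik overlap another expressed gene that held over 10% of their counts. So do Ntng2, Srebf1, Surf1 and Traf3ip3 among the genes that rose. For Zbed6 and Ntng2 that gene lies on the same strand, and for the others on the opposite one. The labels do not settle whether reads were counted by strand, and strand cannot part genes on the same strand. All these values are therefore uncertain.

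Apart from Gpx3, several genes with changes above 2-fold had low levels. Duxbl1, a double homeobox gene with near-identical copies, stood at 12.9, 17.4 and 13.9 CPM at 4 weeks and 6.77, 2.93 and 3.48 CPM at 8 weeks (-1.73 ± 0.27, adjusted p = 0.00504). Reads of its copies may have been split between them. Capn11, a calpain protease, stood at 15.3, 9.78 and 9.17 CPM and 2.80, 2.88 and 5.03 CPM (-1.68 ± 0.31, adjusted p = 0.0188). Ccdc187 fell by 1.29 on the log2 scale. Among those that rose, Pabpn1l, a poly-A binding protein, reached only 3.45 ± 0.653 CPM (1.48 ± 0.28, adjusted p = 0.0233). At a smaller fold, Gzmm, a protease of the granzyme family, rose from 20.5 ± 2.62 to 39.7 ± 3.65 CPM (0.96 ± 0.11, adjusted p = 0.000394). Cd3e, which marks T cells, was at 0 counts in all 6 libraries, and the cell source of Gzmm was not tested. The Duxbl1 call ended without 8-week replicate 2 (adjusted p = 0.0683). Those of Capn11, Ccdc187 and Pabpn1l ended without 8-week replicate 1 or 2 and without further libraries, with adjusted p up to 0.162, 0.106 and 0.106.

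Among the genes listed for matrix and vessels, 1 collagen and the adhesion protein gene Vtn rose and 1 matrix gene fell by edgeR. Col4a3, a chain of the basement membrane collagen of mature capillaries and of the inner limiting membrane, stood at 8.97, 9.62 and 11.1 CPM at 4 weeks and 17.0, 19.5 and 18.4 CPM at 8 weeks (0.89 ± 0.16, adjusted p = 0.0188). It was the only 1 of 33 collagens past the threshold, and their median was 0.01. Its partner chain Col4a4 was at 0.36 and the more general chains Col4a1 and Col4a2 at -0.06 and 0.02. Sparc, a matrix protein that binds collagen and is high in tissue under remodelling, stood at 370, 365 and 333 CPM and 243, 265 and 273 CPM (-0.45 ± 0.07, adjusted p = 0.00504). By edgeR it was the only 1 of 31 matrix genes past the threshold (7 at an unadjusted p under 0.05). DESeq2 also called Efemp1 (0.42, adjusted p = 0.0160) and Ogn (0.81, adjusted p = 0.0196), both higher at 8 weeks. Ogn is on the scleral and choroidal list too. These 2 genes were named after their values were seen. The Sparc call, too, ended in the fit of the 6 C57BL/6J libraries alone (adjusted p = 0.0566). Vtn, the cell-adhesion protein vitronectin, rose from 849 ± 58.9 to 1067 ± 24.8 CPM (0.33 ± 0.07, adjusted p = 0.0276), the only 1 of 13 tested genes of the pericyte list. It made up most of that list's summed level, 968 to 1046 CPM at 4 weeks, while 8 of the 13 had a negative log2 fold change and the median was -0.16. The cell source of Vtn was not tested. Ptgds, which makes prostaglandin D2 and is abundant in the membranes around neural tissue, stood at 161, 110 and 105 CPM and 244, 213 and 181 CPM (0.76 ± 0.16, adjusted p = 0.0360). The summed scleral and choroidal genes, given above, also did not overlap between the ages. Their list held 0 of 11 genes past the threshold by edgeR (4 at an unadjusted p under 0.05, 2 by DESeq2) and had a median of 0.53, and its part in the values of Col4a3 and Ptgds was not tested. P4ha1, which hydroxylates prolines of new collagen chains, stood at 79.1 to 85.0 CPM and 64.7 to 68.1 CPM. This change (-0.30 ± 0.09) did not pass by edgeR (adjusted p = 0.136) but passed by DESeq2 (adjusted p = 0.0465).

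The 24 endothelial markers and 29 vessel growth genes held 0 past the threshold by edgeR (4 each at an unadjusted p under 0.05, and 1 and 0 by DESeq2), with medians of -0.03 and -0.06. Cldn5, the claudin of the vessel barrier, was at 0.15 ± 0.14 and the VEGF receptor Kdr at 0.03 ± 0.07. The Col4a3 call ended without 4-week replicate 2 or 8-week replicate 2 or 3 (adjusted p up to 0.150). Those of Vtn and Ptgds ended without 4-week replicate 2 or 8-week replicate 1 or 2, that of Vtn also without 8-week replicate 3 and that of Ptgds without 4-week replicate 3 (up to 0.173 and 0.162).

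Of the 5 immune lists described here, 0 genes passed by edgeR, and DESeq2 called Serping1, an inhibitor of complement (0.66, adjusted p = 0.0365), and Ifit3, an interferon-induced gene (0.59, adjusted p = 0.0101), both higher at 8 weeks. These 2 genes were named after their values were seen. The 14 homeostatic microglia genes had a median of -0.27 (2 at an unadjusted p under 0.05, 0 by DESeq2), with Csf1r, the receptor that microglia need to survive, at 12.5 to 15.2 CPM and 9.84 to 12.7 CPM (-0.31 ± 0.13, adjusted p = 0.285). The 20 activated microglia and macrophage genes tested had a median of 0.34, with 16 positive (4 at an unadjusted p under 0.05, 0 by DESeq2). All 24 genes of that list summed to 1261 to 1704 CPM at 4 weeks and 1766 to 1817 CPM at 8 weeks. These ranges do not overlap, and the lowest sum was that of 4-week replicate 3. The mean log2 CPM of the list was only 1.51 and 1.68, so a few abundant members make up most of the sum. Their cell source was not tested. All 14 homeostatic genes summed to 61.7 to 70.4 CPM and 62.7 to 67.3 CPM. The 14 complement genes had a median of 0.33 (4 at an unadjusted p under 0.05) and the 25 interferon-stimulated genes 0.17 (6 at an unadjusted p under 0.05). All 12 genes of MHC class I and peptide loading had a positive log2 fold change with a median of 0.28 (3 at an unadjusted p under 0.05, 0 by DESeq2). H2-D1, a classical class I chain, was at 0.19 ± 0.15. Gfap, the filament of astrocytes and reactive Müller glia, was at -0.02 ± 0.16.

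**Figure D3:**
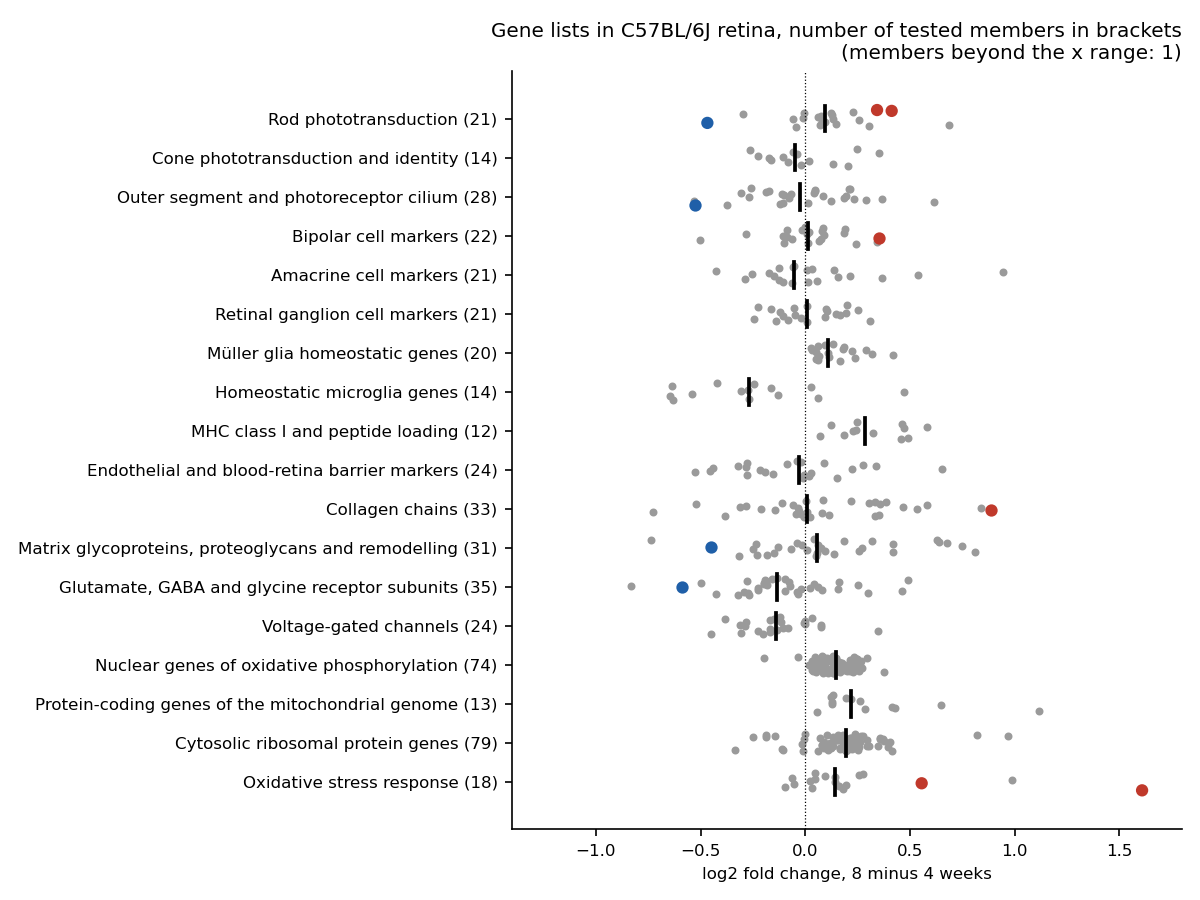
Log2 fold change from 4 to 8 weeks (x axis) of each tested member of 18 gene lists (rows, with the number tested), 1 point per gene. Red and blue points passed the threshold, higher and lower; the black bar is the list's median, which is 0.15 for oxidative phosphorylation and -0.27 for homeostatic microglia. The collagen Col14a1 lies beyond the x range.

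Across the 60 lists, 14 of 1079 tested genes passed, 8 higher and 6 lower, and 49 lists held none. Over all genes tested, 79 of 18334 (0.431%) passed. The lists were chosen with earlier results of these data known, so a larger share among their genes is no finding.

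Gene length moved with age. The genes that rose had a median length of 2506 bases and those that fell 7309, against 3838 over all genes tested. Over genes of less than 1 kb the median log2 fold change was 0.09, and over those of more than 8 kb it was -0.11. Across genes, which are not independent replicates, Spearman's correlation of length and log2 fold change was -0.24 (n = 18334). In single retinas, the median deviation of log2 CPM of genes over 8 kb minus that of genes of 1 to 2 kb was -0.01, 0.03 and 0.24 at 4 weeks and -0.07, -0.12 and -0.14 at 8 weeks. Every 8-week retina lay below every 4-week retina, and 4-week replicate 3 stood highest.

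With a smooth trend on gene length removed from each library, a fit added after the data were seen, 52 genes passed, 29 higher and 23 lower, and 45 of them were among the 79. Sag (0.50), Gpx3 (1.55), Slc38a3 (0.47), Sgk1 (0.60), Hdc (1.13), Col4a3 (1.00), Marcksl1 (-0.59) and Sparc (-0.47) kept their calls. Gnat1 (0.30, adjusted p = 0.0559), Rgs9 (-0.42, adjusted p = 0.0612), Gabrb2 (-0.54, adjusted p = 0.0637), Gstm1 (0.48, adjusted p = 0.0866), Vtn (0.27, adjusted p = 0.0637), Ptgds (0.70, adjusted p = 0.0591), Reep6 (0.31, adjusted p = 0.0843) and Xist (-0.62, adjusted p = 0.123) did not. Of the 9 chromatin and transcription genes, Lcor, Zbtb37, Klf12 and Zbed6 kept their calls and the other 5 lost them: Tasor (-0.36, adjusted p = 0.0957), Kdm5a (-0.28, adjusted p = 0.116), Kdm7a (-0.30, adjusted p = 0.123), Hdac9 (-0.27, adjusted p = 0.184) and Med12l (-0.48, adjusted p = 0.145). Chchd10, Surf1 and Slc15a2 lost theirs too (adjusted p = 0.0579, 0.0640 and 0.0753). The medians of oxidative phosphorylation, ribosomal protein and mitochondrial genome genes were then 0.08, 0.13 and 0.13, and that of the voltage-gated channels was -0.02. Whether the length trend comes from the tissue or from the RNA and libraries was not tested.

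**Figure D4:**
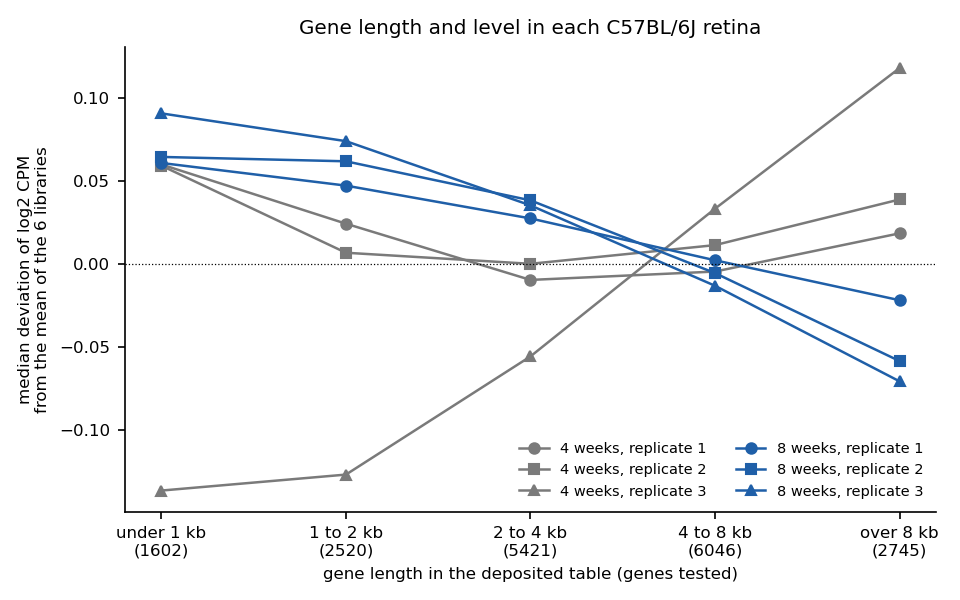
Median deviation of log2 CPM from the mean of the 6 libraries (y axis) in 5 classes of gene length (x axis, with the number of genes), 1 line per C57BL/6J retina. For genes over 8 kb the 8-week retinas (blue) all lie below 0 and the 4-week retinas (grey) above it; 4-week replicate 3 has the steepest line.

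The same genes were then read in JR5558 retinas, to see which of the changes were particular to C57BL/6J. The sex of the retinas limits this. The JR5558 retinas of 4 weeks held Y-linked counts and almost no Xist, and those of 8 weeks the reverse, so sex and age cannot be told apart in that strain. Leaving Xist aside, 69 of the 78 genes had the same sign of change in JR5558, 30 of 37 that rose and 39 of 41 that fell, where 62.6% of all genes tested had the same sign. By the test within JR5558, in which 1.51% of genes passed, 22 passed in the same direction and 1 in the opposite. The median log2 fold change of the 37 was 0.58 in C57BL/6J and 0.24 in JR5558, and that of the 41 was -0.54 and -0.28. The C57BL/6J values are those that chose the genes, so their larger size is no finding.

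The difference of the 2 changes, tested over all genes (0.0927% passed), passed for 5 of the 79. For Slc38a3 the change was 0.44 ± 0.07 in C57BL/6J and -0.16 ± 0.07 in JR5558 (difference -0.61 ± 0.10, adjusted p = 0.0106), and for H3f3b 0.50 ± 0.07 and -0.16 ± 0.07 (-0.67 ± 0.11, adjusted p = 0.0105). Arrdc3 differed by -0.70 ± 0.13 (adjusted p = 0.0465). The difference ended for Slc38a3 and H3f3b when 1 of 5 libraries was left out (adjusted p up to 0.0654 and 0.0781) and for Arrdc3 without any of 10 libraries (up to 0.277). That of Arrdc3 also ended with RLE scaling, with 1 CPM or more in 3 libraries and with the replicate block (adjusted p up to 0.0968). Xist also passed. For the other 74 the test did not pass, which does not show that the strains changed alike. Sgk1 rose by 0.58 ± 0.08 and 0.85 ± 0.08 (difference 0.27 ± 0.12), Sparc fell by 0.45 and 0.61, and Hdc rose by 1.09 ± 0.15 and 1.84 ± 0.21, from 1.37 ± 0.435 to 4.83 ± 0.349 CPM in JR5558.

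**Figure D5:**
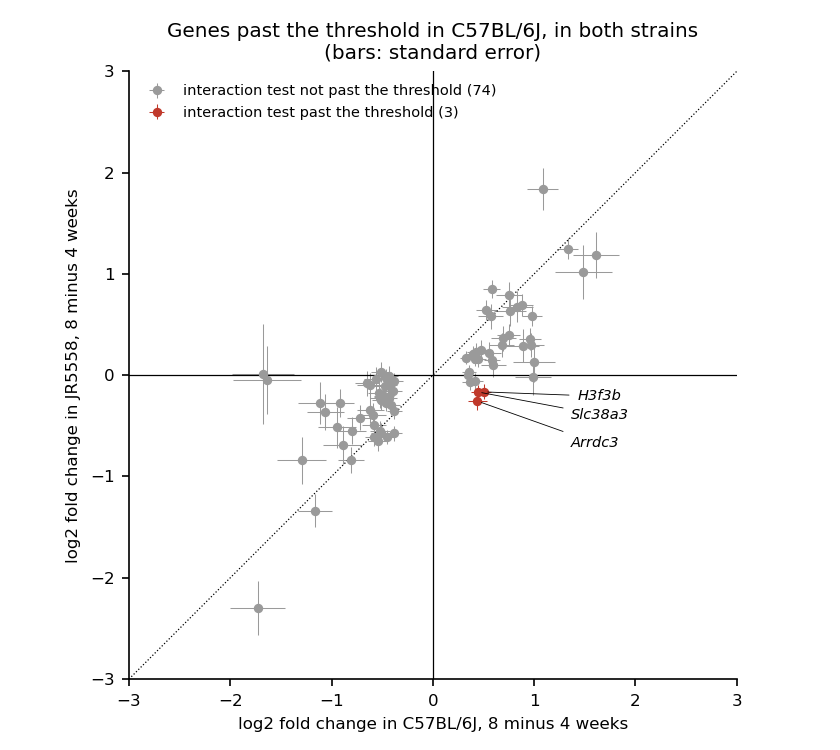
Log2 fold change from 4 to 8 weeks in C57BL/6J (x axis) and in JR5558 (y axis) of 77 genes past the threshold in C57BL/6J, with standard errors as bars and the line of equal change dotted. The 3 red genes, Slc38a3, H3f3b and Arrdc3, passed the test of the difference and lie to the right of 0 and below it.

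In the authors' deposited table of this comparison, 156 genes had an adjusted p under 0.05, 61 higher and 95 lower at 8 weeks. Of the 79 genes called here, 74 were among them, all with the same sign, which is 93.7% of the 79 and 47.4% of the 156.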

How the data were processed

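Per the labels' protocols, total RNA of whole retinas was purified on poly-T beads and made into cDNA with random hexamers. The submitters' processing notes name fastp, HISAT2 2.0.5, featureCounts 1.5.0-p3 and the build mm10. Per the file headers, the deposited table holds a raw count for every gene in each library, and on these all tests here rest. It also gives the authors' FPKM values and the group means they scaled by library (not used), and the log2 fold changes and p-values of their own comparisons, whose test is not given in the sources used here. Gene positions in the table are not printed: of 52125 identifiers shared with GENCODE M21, 2.92% had the same start and end, so their build is not settled.

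Counts were analysed in R 4.3.3 with edgeR 4.0.16 (limma 3.58.1). The 18334 genes tested were those that filterByExpr keeps, given the groups (count of 10, total of 15). The table has 56748 genes, of which 25020 had 0 counts in all 12 libraries. Library sizes were scaled by TMM, and 1 quasi-likelihood model over the 12 libraries gave each group its own mean. The change from 4 to 8 weeks in C57BL/6J, that in JR5558 and their difference were tested (2-sided) with Benjamini-Hochberg adjustment over all genes tested and a threshold of 0.05. CPM are counts per 1000000 on TMM-scaled totals, and log2 CPM used a prior count of 2. Apart from an exact permutation test of the mean level of 9 marker lists of other tissues, no gene list was tested. The tests were tested on simulated data. With changes planted in C57BL/6J at 8 weeks, edgeR recovered 24 of 50 at 1.5-fold and 35 of 50 at 2-fold. At 4-fold and 8-fold it recovered 43 and 47 of 50, and 5 of its 154 calls were not planted. Changes below 1.5-fold were not planted. A gene that did not pass is therefore not shown to be unchanged.

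The genes and the 60 lists (1143 genes, 1079 tested) were chosen with earlier results of these data known. Named genes are, of those called, the 12 that rose most and the 12 that fell most (at least 1 CPM in the higher group, ages that do not overlap, no pseudogenes or unnamed models), up to 4 called members per list, the 2 most abundant members of lists with no call, 15 landmark genes, and for the difference between strains the 6 with the smallest adjusted p among genes called in C57BL/6J and any landmark or list gene that passes. Some genes the rule takes are not reported here, though the counts include them. Reep6, Ntng2, Odc1, Srebf1, Chchd10, Surf1, H2bc4, Kdm5a, Kdm7a, Tasor, Hdac9, Serinc5, Col4a2 and Col4a4 were added after their values were seen. So were the pseudogenes and the unnamed model in the account of calls that held.

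Alternatives were RLE scaling, testing every gene with a count, keeping genes with 1 CPM or more in 3 libraries, DESeq2 1.42.0, only the 6 C57BL/6J libraries, the replicate number as a block, and leaving out each library. A fit with a lowess trend on gene length (span 0.3) removed from each library was added after the data were seen.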

Additional observations from a re-analysis of the deposited data

Results flagged for a closer look

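The change from 4 to 8 weeks differed between C57BL/6J and JR5558, by the test of the difference itself, for 7 of the genes named here. The differences below are JR5558 minus C57BL/6J on the log2 scale. In JR5558 the retinas of 4 weeks carried Y-linked RNA and those of 8 weeks did not, so sex and age cannot be told apart in each of these values.

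Xist differed by 12.84 ± 0.41 (adjusted p = 4.94e-13), and in JR5558 it stood at 0.115 ± 0.134 CPM at 4 weeks and 492 ± 105 CPM at 8 weeks. Vsx1, a bipolar cell factor, differed by -0.71 ± 0.13 (adjusted p = 0.0435). The Vsx1 test passed in 1 of the 12 fits that left out a library, and it ended with the replicate block (adjusted p = 0.102). Slc38a3 differed by -0.61 ± 0.10, H3f3b by -0.67 ± 0.11 and Arrdc3 by -0.70 ± 0.13, as described above.

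For 2 further genes the difference passed while the change in C57BL/6J did not. Dio2, which makes the active thyroid hormone, stood at 36.1 ± 8.40 and 25.2 ± 2.00 CPM in C57BL/6J (-0.52 ± 0.20, adjusted p = 0.251) and at 43.4 ± 16.7 and 107 ± 14.2 CPM in JR5558. The difference was 1.82 ± 0.28 (adjusted p = 0.0105), and it ended without C57BL/6J 8-week replicate 2 (adjusted p = 0.0585). Usp2, a deubiquitinase with a daily rhythm, stood at 123 ± 8.06 and 119 ± 2.74 CPM in C57BL/6J and at 110 ± 17.2 and 197 ± 5.66 CPM in JR5558. The difference of 0.89 ± 0.13 (adjusted p = 0.00799) passed in all 12 fits that left out a library.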

How the results depend on the processing

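No called gene changed sign in any alternative, and 12 of the 79 passed in all planned fits. The count of genes past the threshold was 445 with no filter on low counts (188 higher, 257 lower, 47 at least 2-fold; 87 genes of the lists; all 79 shared), 407 by DESeq2 (167 higher, 240 lower; 53 of the lists; 76 shared), 22 with only the 6 C57BL/6J libraries in the fit (13 higher, 9 lower, 7 at least 2-fold; 3 of the lists) and 52 with the length trend removed (29 higher, 23 lower; 7 of the lists). RLE scaling gave 75 (37 higher, 38 lower), and it moved the median of all genes by less than 0.1. Leaving out 1 library gave 16 to 125 genes (13 to 68 higher, 3 to 57 lower, 4 to 22 at least 2-fold; 4 to 24 of the lists). The difference between strains passed for 17 genes, 96 with no filter, 63 by DESeq2 and 6 to 38 without 1 library. The cause of these shifts was not tested. The replicate numbers share only a number across ages: the deviations of same-numbered retinas correlated at -0.06, -0.08 and -0.00. With the replicate block, 59 genes passed (30 higher, 29 lower), 57 of them shared. Among the calls lost with it were those of Reep6, Gabrb2, Marcksl1, Vtn, Surf1, Arrdc3, Chchd10, Slc15a2, Kdm5a and Hdac9.

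There were 3 retinas per age, and 43 of the 79 changes were below 1.5-fold. The fit of the 6 C57BL/6J libraries also tested fewer genes, 17239. Gpx3, Hdc, Isyna1, Gzmm, Hmgb2, Odc1, Sgk1, H3f3b and H1f2 kept their calls in it. Lcor, Zbtb37, Klf12, Zbed6, Duxbl1, Capn11, Atp7a and Col4a3 did too, as did Gm47647, Gm28661 and A930030B08Rik. The other called genes named here lost theirs in that fit. The 8-week retina that stood apart on the first principal component was replicate 1, and without it 31 genes passed, 28 of them among the 79. The 4-week retina that stood apart in lens genes, gene length and mitochondrial counts was replicate 3, and without it 87 passed, 56 of them among the 79.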

Other observations

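The time of day at which the retinas were taken is not given in the sources used here. Of 18 clock genes 0 passed by edgeR (2 at an unadjusted p under 0.05, 0 by DESeq2), and their median log2 fold change was -0.05. Hlf and Tef, clock output factors, were at -0.11 ± 0.07 and -0.03 ± 0.06. Of 20 immediate early genes 0 passed (3 at an unadjusted p under 0.05, 0 by DESeq2), with a median of -0.13. Of 20 cholesterol synthesis genes 0 passed (4 at an unadjusted p under 0.05, 0 by DESeq2), with a median of 0.01. Igf2, an imprinted growth factor that is high before birth, stood at 1.27 to 3.01 CPM and 1.60 to 1.94 CPM (-0.17 ± 0.37).

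The gene with the smallest p was Gm47647, annotated as a transcribed processed pseudogene, which was singled out after its values were seen. Whether reads of another copy were counted there was not tested. It stood at 22.2, 27.4 and 26.9 CPM at 4 weeks and 64.8, 67.4 and 60.1 CPM at 8 weeks (1.33 ± 0.10, adjusted p = 3.17e-06), and in JR5558 its change was 1.25 ± 0.10.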
